A study of Mus musculus with 6 samples.

Results

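The genes described here are 10 genes used as markers of portal fibroblasts and mesothelial cells of the liver. They are Thy1, Fbln2, Eln, Gas6, Entpd2, Cd248 and Dpt for portal fibroblasts and Msln, Upk3b and Wt1 for mesothelial cells. Some of them are also expressed by other cells, as given below, so their reads need not come from these cells alone. The 10 genes were chosen by gene symbol. All 10 were found among the 22905 genes of the deposited table of RNA-seq read counts, and all 10 passed the filter on low counts. The libraries came from primary mouse hepatic stellate cells of the genotype BucheKI/KI-Hep from animals given CCl4, or carbon tetrachloride, a liver poison that brings on fibrosis. The labels put 3 libraries under PBS and 3 under DOX, so the genotype and the CCl4 treatment are shared by both groups. All 6 titles also carry the tag S2W, and the labels spell out neither S2W nor DOX. The design text describes over-expression of butyrylcholinesterase in hepatocytes, and DOX is set against PBS to see which transcripts of the isolated cells go with it. Animals that lack the introduced gene or CCl4 were not analysed here, so effects of DOX itself and of the gene cannot be told apart. The age of the animals, and whether each library came from 1 animal or several, are not given in the labels.

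Portal fibroblasts are matrix-producing cells of the connective tissue around bile ducts and portal vessels. Mesothelial cells form the sheet that covers the surface of the liver and faces the abdominal cavity. Both kinds of cell are mesenchymal neighbours of stellate cells, both can give rise to matrix-producing myofibroblasts in injured liver, and both can be carried along when stellate cells are isolated. In bulk libraries such as these, fewer cells of a type and less RNA per cell cannot be told apart.

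Total counts were between 36220282 and 37707364 per library, so 1 read was worth 0.0253 to 0.0293 CPM, the count scaled to the library's size. Bche, the gene of butyrylcholinesterase, had 8, 26 and 14 reads in PBS replicates 1, 2 and 3 and 1225, 582 and 3639 reads in DOX replicates 1, 2 and 3. Transcripts of other liver cells were abundant in every library. The 10 endothelial genes examined summed to between 4174 and 5804 CPM and the 12 macrophage genes to between 3486 and 12637 CPM, against 300 to 706 CPM for 14 stellate cell genes. The stellate genes differed widely in level. The most abundant, Ecm1 and Hgf, had means of 191 and 78.0 CPM over the 6 libraries. The retinol-esterifying enzyme gene Lrat had a mean of 2.00 CPM in PBS and 2.41 CPM in DOX, so this defining marker was present at a low level. Hepatocyte transcripts differed widely within the DOX group, with Alb at 346, 116 and 1862 CPM in replicates 1, 2 and 3. Bche had the same order over these replicates, at 35.8, 16.4 and 99.3 CPM. The part of hepatocyte transcripts in the Bche reads was not tested. Because separate animals or cultures are not stated, the p-values cover the spread between these samples only, and that spread may be technical.

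Of the 10 marker genes, 1 passed the threshold in the comparison of DOX with PBS, and it was higher in DOX. That gene was Thy1, which was 3.06-fold higher. Dpt was 2.90-fold lower in DOX and fell just short of the threshold. Over all 14439 genes tested, 6.41% passed, 4.38% higher and 2.04% lower, so the 10% of the markers that passed does not stand clear of the background. A log2 fold change above 0 was seen for 8 of the 10 markers, against 48.6% of all genes tested. The median over the markers was 0.49, against -0.01 over all genes. By DESeq2, 2 of the markers passed (Thy1 and Dpt), against 18.6% of all genes, and by limma-voom 1 (Thy1), against 5.97%. DESeq2 gave an adjusted p to 13597 of the 14439 genes, and its share counts the others as not passing. DOX and PBS values did not overlap for 3 of the 10 markers, Thy1 and Upk3b higher and Dpt lower, against 34.6% of all genes. All adjusted p come from the quasi-likelihood test of edgeR over all genes tested unless another tool is named.

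**Figure D1:**
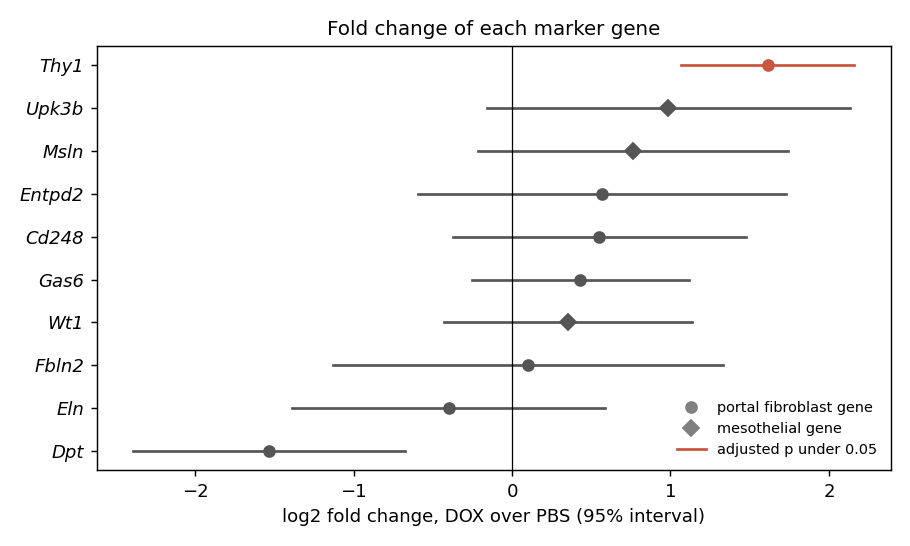
Log2 fold change of DOX over PBS for each of the 10 marker genes, with 95% intervals from edgeR that are not adjusted for the number of genes. Circles are portal fibroblast genes, diamonds are mesothelial genes, and red marks an adjusted p under 0.05, which Thy1 alone of the 10 reached (1.61).

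Per length of transcript, the mesothelial gene Msln was the most abundant of the 10 and Cd248 the least. In the deposited FPKM values, which allow levels of different genes to be compared, the means over the 6 libraries were 21.2 for Msln, 12.9 for Fbln2, 9.93 for Upk3b and 7.69 for Gas6. They were 5.39 for Dpt, 2.31 for Thy1, 1.79 for Eln and 1.52 for Wt1, and 0.743 for Entpd2 and 0.587 for Cd248. The ranges over libraries of every 2 neighbours in this order overlapped. Wt1 was above Entpd2 in 6 of 6 libraries and Msln above Fbln2 in 5 of 6, whereas Dpt was above Thy1, Eln above Wt1, and Entpd2 above Cd248 in 3 of 6 each. Msln was more abundant per length than 86.9% of all genes in the table and Cd248 than 49.8%.

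**Figure D2:**
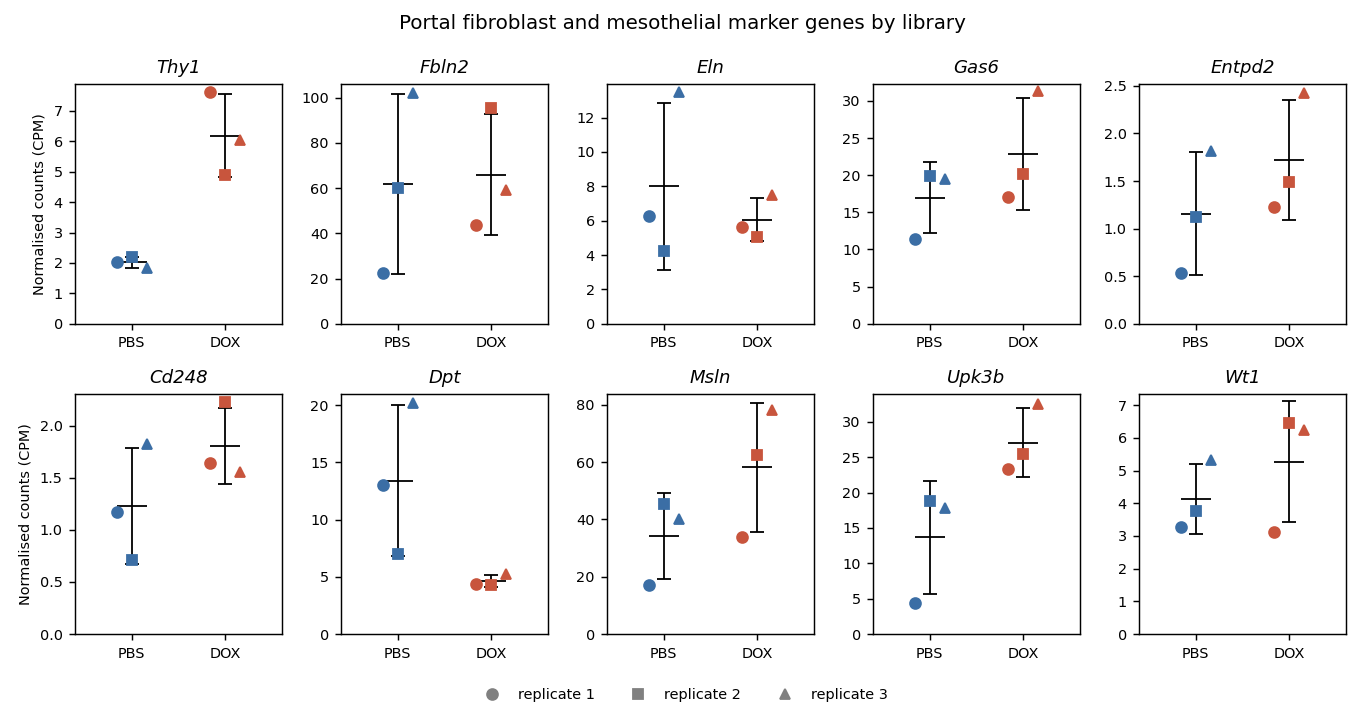
Normalised counts (CPM) of the 10 marker genes in each library, one panel per gene, with PBS in blue and DOX in red. Marker shapes give the replicate number, horizontal bars the group mean and error bars the standard deviation of 3 libraries; each vertical axis starts at 0. Thy1 separates upward (1.84 to 2.20 CPM in PBS, 4.90 to 7.61 CPM in DOX) and Dpt downward.

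Thy1 encodes a glycoprotein anchored to the outer cell membrane that marks portal fibroblasts in the liver and is also carried by T cells and neurons. The gene lies on the plus strand of chromosome 9, at chr9:44043384-44048579 in GRCm38.p6. It had 76, 84 and 73 reads in PBS replicates 1, 2 and 3 and 260, 174 and 221 reads in DOX replicates 1, 2 and 3. Every DOX library was above every PBS library, and the PBS libraries lay close together. On the CPM scale the level rose from 2.02 ± 0.177 in PBS to 6.18 ± 1.36 in DOX (SD, n = 3 each). On the log2 scale the difference was 1.61 (SE 0.23, 95% interval 1.06 to 2.16, edgeR adjusted p = 0.0240). Of all genes tested, 95.8% had a lower log2 fold change. Leaving out PBS replicate 2 ended the call at a log2 fold change of 1.68 (edgeR adjusted p = 0.0754). So did leaving out PBS replicate 3, at 1.55 (edgeR adjusted p = 0.0868), or DOX replicate 1, at 1.44 (edgeR adjusted p = 0.0640). Over all genes, 0 passed in either of the fits that lack PBS replicate 2 or 3 (3294 and 3092 at an unadjusted p under 0.05) and 85 in the fit that lacks DOX replicate 1.

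Most of the T cell genes examined moved in the same direction as Thy1 between the groups. Of 11 tested T cell genes, 10 had a log2 fold change above 0, with a median of 1.36, and in 7 of them every DOX library lay above every PBS library, against 16.9% of all genes tested. The coreceptor gene Cd4, which macrophages can also express, was the 1 that passed, and it rose 2.92-fold from 1.89 ± 0.814 to 5.53 ± 1.20 CPM (SD, n = 3 each, edgeR adjusted p = 0.0477). Lck, the T cell receptor kinase gene, stood at 3.61, 2.09 and 1.36 CPM in PBS replicates 1, 2 and 3 and at 7.37, 5.44 and 5.68 CPM in DOX replicates 1, 2 and 3 (log2 fold change 1.39, edgeR adjusted p = 0.0664). The Cd3 genes Cd3e, Cd3d and Cd3g, which encode signalling chains of the T cell receptor complex and are named outside the naming rule, summed to 92, 47 and 18 reads in PBS and 175, 88 and 205 in DOX. No T cell gene of the list that the table holds was at 0 over all libraries. Summed over the 11 genes, the T cell list held 47.1 to 148 CPM in PBS and 55.9 to 100 CPM in DOX. Most of that sum was Il7r, a cytokine receptor gene and the 1 gene of the 11 that was lower in DOX (log2 fold change -0.49, edgeR adjusted p = 0.544). Without Il7r, a setting chosen after its level was seen, the sum of the other 10 genes was 6.42 to 14.0 CPM in PBS and 18.8 to 28.6 CPM in DOX. Within PBS the Cd3 reads varied from 18 to 92 while those of Thy1 stayed between 73 and 84, so that replicates 1, 2 and 3 had 8.26, 17.9 and 40.6 reads of Thy1 for every 10 of Cd3. The same ratio was 14.9, 19.8 and 10.8 in DOX replicates 1, 2 and 3, inside the range of the PBS libraries. The part of T cell transcripts in the rise of Thy1 was not tested.

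**Figure D3:**
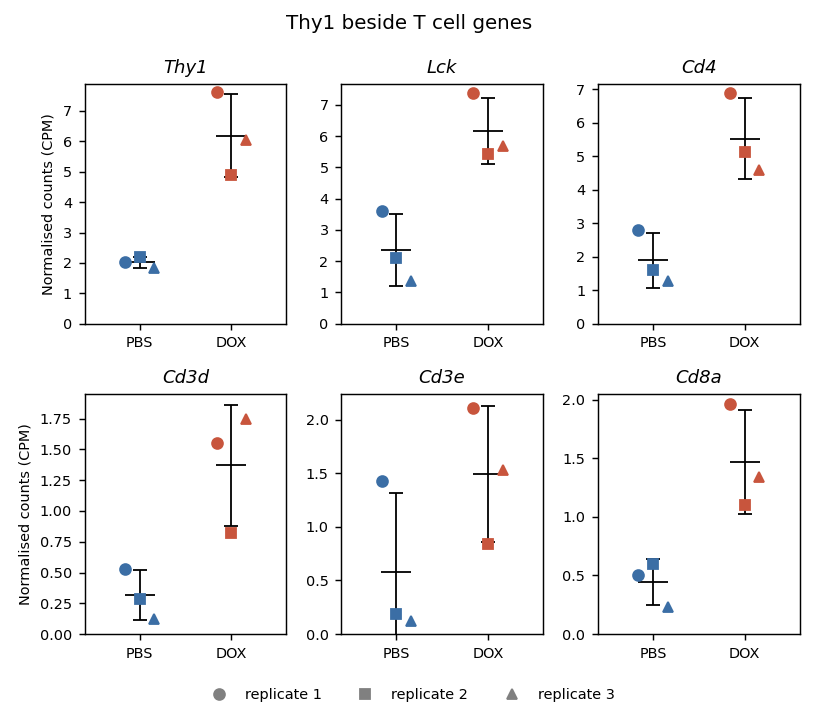
Normalised counts (CPM) of Thy1 and of the T cell genes Lck, Cd4, Cd3d, Cd3e and Cd8a by library, with group means and standard deviations of 3 libraries; marker shapes give the replicate number and each vertical axis starts at 0. In every panel but that of Cd3e the DOX libraries lie above the PBS libraries, and only Thy1 is near constant within PBS.

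Dpt, which encodes dermatopontin, a small protein of the extracellular matrix that marks fibroblasts of many tissues, moved the other way. The gene lies on the plus strand of chromosome 1, at chr1:164796663-164824274 in GRCm38.p6. PBS replicates 1, 2 and 3 held 492, 269 and 799 reads, and DOX replicates 1, 2 and 3 held 150, 152 and 191. All DOX libraries were below all PBS libraries, and the DOX libraries differed among themselves by 1.22-fold against 2.87-fold in PBS. The level was 13.4 ± 6.58 CPM in PBS against 4.63 ± 0.509 in DOX (SD, n = 3 each). On the log2 scale the difference was -1.54 (SE 0.36, 95% interval -2.39 to -0.68), with an edgeR adjusted p of 0.0530, so it did not pass. In each of the 19 alternative settings Dpt stayed lower in DOX, with log2 fold changes between -1.85 and -1.12 and adjusted p between 0.000945 and 0.165. It passed in 3 of them, DESeq2 (adjusted p = 0.000945), library totals alone (edgeR adjusted p = 0.0403) and no low-count filter (edgeR adjusted p = 0.0341). Only 0.388% of all genes tested had a lower log2 fold change. An antisense transcript, Gm32569, overlaps the gene but had at most 18 reads in any library.

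Promoter sequence was at hand for 5 of the 10 markers, and that of Dpt is shown because Dpt was the marker with the lowest fold change. These are the 250 bases before its annotated start, on the plus strand at chr1:164796413-164796662 in GRCm38.p6, from RefSeq.
Dpt promoter: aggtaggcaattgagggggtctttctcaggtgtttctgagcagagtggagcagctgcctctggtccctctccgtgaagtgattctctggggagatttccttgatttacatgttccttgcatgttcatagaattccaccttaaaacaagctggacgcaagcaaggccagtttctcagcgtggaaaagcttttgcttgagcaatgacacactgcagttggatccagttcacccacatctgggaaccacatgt
Both strands of the window were searched for 5 short motifs, and matches would stand in capitals. They were TATAAA for the TATA box, then CCAAT for the box of that name, CATTCC for the TEAD factors, TGACTCA for AP-1, and GGGCGG for the GC box. It held 0 matches to these letters. Of 32851 promoter windows of the same length, 12.4% held the TATA box, 33.8% the CCAAT box, 12.6% the TEAD motif, 4.46% the AP-1 motif and 32.7% the GC box.

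Other fibroblast genes were examined beside Dpt. Of 15 further portal fibroblast genes, 0 passed the edgeR test (unadjusted p under 0.05 for 4, with 2 called by DESeq2, both lower, and 0 by limma-voom). Over all genes tested, DESeq2 called 18.6% and limma-voom 5.97%. An unadjusted edgeR p under 0.05 was reached by 3058 of 14736 genes without DOX replicate 1 and 4358 of 14691 without DOX replicate 3. These were the fewest and the most with 1 library left out. The list counts here and below come from the fit of all 6 libraries, so these values are only a rough background for them. The median log2 fold change of the 15 genes was -0.08, with 6 positive and 9 negative. Pi16, which encodes a peptidase inhibitor of adventitial fibroblasts, had 1.82 ± 0.110 CPM in PBS against 0.865 ± 0.0310 in DOX (SD, n = 3 each). All its DOX libraries were below all its PBS libraries (log2 fold change -1.07, SE 0.25, edgeR adjusted p = 0.0510). Col15a1, a collagen gene of portal fibroblasts, had a log2 fold change of -0.87 (edgeR adjusted p = 0.120), the proteoglycan gene Lum -0.83 (edgeR adjusted p = 0.157) and the microfibril gene Mfap4 -1.42 (edgeR adjusted p = 0.163). Other genes of the list went the other way without passing. Mgp had a log2 fold change of 0.94 (edgeR adjusted p = 0.202) and Igfbp6 0.75 (edgeR adjusted p = 0.306), and their groups overlapped. Clec3b had 1.59 (edgeR adjusted p = 0.423), which rested on DOX replicate 3. Its DOX replicates 1, 2 and 3 had 0.497, 0.225 and 8.87 CPM, against 1.01 to 1.11 CPM in PBS. The most abundant of the list, the proteoglycan gene Dcn, stood at 496 ± 230 CPM in PBS against 557 ± 136 in DOX (edgeR adjusted p = 0.778), so it differed by less than the spread between replicates. Cd34, which endothelial cells also express, had a log2 fold change of -0.08. The share of Dpt relative to another fibroblast transcript was lower too. For every 100 normalised counts of Col1a1, a type I collagen gene, PBS replicates 1, 2 and 3 had 14.4, 6.43 and 8.14 of Dpt, and DOX replicates 1, 2 and 3 had 3.37, 2.30 and 5.12.

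**Figure D4:**
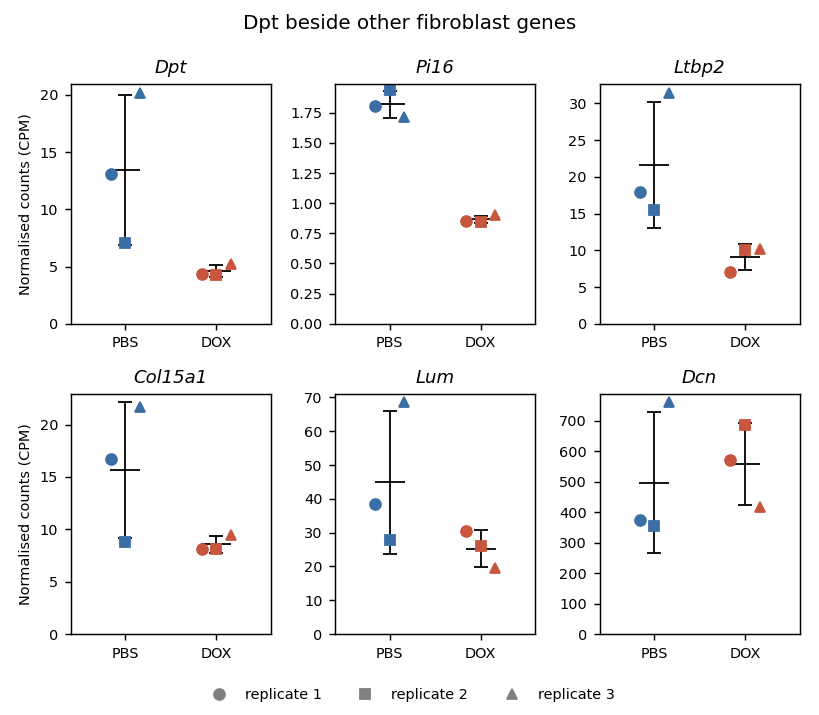
Normalised counts (CPM) of Dpt and of the fibroblast genes Pi16, Ltbp2, Col15a1, Lum and Dcn by library, with group means and standard deviations of 3 libraries; each vertical axis starts at 0. The DOX libraries lie below all PBS libraries for Dpt, Pi16 and Ltbp2, and the groups overlap for Col15a1, Lum and Dcn.

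Fbln2 and Eln are components of elastic fibres, the recoiling matrix fibres of portal tracts. Fbln2 encodes fibulin 2, a glycoprotein that binds to these fibres. By mean FPKM it was the most abundant portal fibroblast marker. Its level was 22.6, 60.0 and 102 CPM in PBS replicates 1, 2 and 3 and 43.6, 95.5 and 59.0 CPM in DOX replicates 1, 2 and 3. PBS and DOX overlapped, and the PBS libraries differed by 4.52-fold. The log2 fold change was 0.10 (SE 0.52, 95% interval -1.13 to 1.33, edgeR adjusted p = 0.924). Its sign turned by library totals alone (-0.036), without PBS replicate 1 (-0.30) and without DOX replicate 2 (-0.27). Eln, which encodes the elastin precursor, had 6.28, 4.24 and 13.5 CPM in PBS and 5.65, 5.04 and 7.48 CPM in DOX. All 3 DOX values lay inside the PBS range, with a log2 fold change of -0.40 (SE 0.42, 95% interval -1.39 to 0.59, edgeR adjusted p = 0.569), and without PBS replicate 3 it was 0.20.

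Elastic fibre genes were highest in 1 of the PBS libraries. In PBS replicate 3, 16 of 16 tested genes of the list, which holds Fbln2 and Eln, had their highest PBS value. This was also so for 14 of 14 stellate cell genes and 9 of 9 myofibroblast genes. The same was not counted over all genes tested. Of the 16 elastic fibre genes, 0 passed the edgeR test (unadjusted p under 0.05 for 3, with 1 called by DESeq2 and 0 by limma-voom), with 8 positive and 8 negative log2 fold changes and a median of -0.13. Ltbp2, which encodes a binding protein of elastic microfibrils, had the lowest p. It stood at 18.0, 15.4 and 31.5 CPM in PBS and 7.02, 10.1 and 10.2 CPM in DOX, with all DOX libraries lower (log2 fold change -1.25, SE 0.30, edgeR adjusted p = 0.0530, DESeq2 adjusted p = 0.00137). Fbln5, a fibulin needed for elastic fibre assembly, had a log2 fold change of -0.80 (edgeR adjusted p = 0.141) and the fibulin gene Efemp1 0.73 (edgeR adjusted p = 0.185). The most abundant gene of the list, Ltbp4, had 0.31 (edgeR adjusted p = 0.546).

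Gas6 encodes a vitamin K-dependent ligand that bridges dying cells to the TAM receptors Tyro3, Axl and Mertk. It had 11.4, 19.9 and 19.5 CPM in PBS replicates 1, 2 and 3 and 17.1, 20.1 and 31.3 CPM in DOX replicates 1, 2 and 3. The groups overlapped, with a log2 fold change of 0.43 (SE 0.29, 95% interval -0.26 to 1.12, edgeR adjusted p = 0.372). Its receptors were measured in the same libraries. Axl, at 97.2 to 106 FPKM in PBS and 118 to 149 FPKM in DOX, and Mertk, at 18.0 to 21.0 and 20.8 to 30.1 FPKM, were more abundant per length than Gas6 itself, at 4.50 to 8.09 and 6.08 to 12.2 FPKM. In CPM every DOX library was above every PBS library for Axl (0.52 on the log2 scale, SE 0.13, edgeR adjusted p = 0.0600) and Mertk (0.47, SE 0.17, edgeR adjusted p = 0.134), and below for Tyro3 (-0.67, SE 0.23, edgeR adjusted p = 0.114). None of the 7 genes of this pathway list passed the edgeR test (unadjusted p under 0.05 for 3, with 2 called by DESeq2 and 0 by limma-voom). Pros1, the related ligand protein S, had a log2 fold change of -0.17 (edgeR adjusted p = 0.471). Macrophages express Axl and Mertk, and 10 of 12 macrophage genes lay higher in every DOX library than in any PBS library, against 16.9% of all genes tested. Their summed level was 3486 to 5639 CPM in PBS and 6993 to 12637 CPM in DOX, no macrophage gene was at 0, and C1qb and C1qc, which encode chains of complement C1q, rose (edgeR adjusted p = 0.0453 and 0.0467). The part of macrophage transcripts in the values of the TAM genes was not tested.

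Entpd2 and Cd248 were the scarcest of the markers. Entpd2 encodes an ectonucleotidase that splits ATP outside portal fibroblasts. It had 20, 43 and 72 reads in PBS replicates 1, 2 and 3 and 42, 53 and 89 reads in DOX replicates 1, 2 and 3. The groups overlapped (log2 fold change 0.57, SE 0.49, 95% interval -0.60 to 1.73, edgeR adjusted p = 0.488). It overlaps Npdc1 by 1971 bases on the same strand, a gene with 1101 to 2014 reads, so some of the few Entpd2 reads could have been split between the genes. Entpd1, the related ectonucleotidase gene of endothelial cells and leukocytes, was at 40.3 ± 16.3 CPM in PBS against 82.5 ± 29.2 in DOX (SD, n = 3 each, edgeR adjusted p = 0.104). Entpd3, a further relative, had 1 read over all libraries. Of 6 tested ectonucleotidase genes, 0 passed the edgeR test (unadjusted p under 0.05 for 1, with 1 called by DESeq2 and 0 by limma-voom) and all 6 had a positive log2 fold change. Cd248 encodes endosialin, a membrane glycoprotein of activated fibroblasts and pericytes, and had 44, 27 and 72 reads in PBS and 56, 79 and 57 in DOX. The groups overlapped here too (log2 fold change 0.55, SE 0.39, 95% interval -0.37 to 1.48, edgeR adjusted p = 0.397).

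The mesothelial markers Msln, Upk3b and Wt1 all had higher means in DOX, and none of the 3 passed. Msln encodes mesothelin, a surface protein of mesothelial cells. It had 17.2, 45.5 and 40.0 CPM in PBS replicates 1, 2 and 3 and 33.9, 62.5 and 78.1 CPM in DOX replicates 1, 2 and 3. DOX replicate 1 lay within the PBS range and the others above it, with a log2 fold change of 0.76 (SE 0.42, 95% interval -0.22 to 1.74, edgeR adjusted p = 0.271). Wt1 encodes a zinc finger transcription factor of mesothelium. It had 3.29, 3.77 and 5.33 CPM in PBS and 3.13, 6.45 and 6.25 CPM in DOX, and its groups overlapped (log2 fold change 0.35, SE 0.33, 95% interval -0.43 to 1.14, edgeR adjusted p = 0.523).

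Upk3b encodes a uroplakin, a membrane protein of the urinary lining that mesothelial cells also make. It had 165, 718 and 705 reads in PBS replicates 1, 2 and 3 and 795, 903 and 1192 reads in DOX replicates 1, 2 and 3. Every DOX library was above every PBS library, and PBS replicate 1 was far below the other 2. The level was 13.7 ± 8.05 CPM in PBS against 27.1 ± 4.84 in DOX (SD, n = 3 each). On the log2 scale the difference was 0.99 (SE 0.48, 95% interval -0.16 to 2.13, edgeR adjusted p = 0.229). Without PBS replicate 1 it was 0.56 (edgeR adjusted p = 0.114), and for Msln it was then 0.44 (edgeR adjusted p = 0.452). The Upk3b promoter is shown because this was the mesothelial marker whose groups did not overlap. It is the 250 bases before the annotated start, on the plus strand at chr5:136038246-136038495 in GRCm38.p6, from RefSeq, and the capitals mark the 1 match to the motifs searched, the TEAD motif CATTCC, which starts 241 bases before the start.
Upk3b promoter: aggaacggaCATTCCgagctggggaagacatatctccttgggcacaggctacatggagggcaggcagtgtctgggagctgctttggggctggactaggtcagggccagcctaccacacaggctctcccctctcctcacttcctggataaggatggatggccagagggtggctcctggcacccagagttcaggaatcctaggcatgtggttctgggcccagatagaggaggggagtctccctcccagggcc

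The 3 markers were examined with 13 further mesothelial genes. All 13 were tested, all 13 had a log2 fold change above 0, with a median of 0.82, and 0 passed the edgeR test (unadjusted p under 0.05 for 3, with 3 called by DESeq2 and 0 by limma-voom). In 5 of the 13 every DOX library was above every PBS library, against 16.9% of all genes tested, and 3 of those 5 were the keratin genes Krt8, Krt18 and Krt19. The genes called by DESeq2 were Nkain4, Krt8 and Krt18. Nkain4, a gene of a membrane protein that interacts with the sodium pump, had the lowest p, with 12, 63 and 63 reads in PBS and 105, 157 and 240 reads in DOX. Its log2 fold change was 1.98 (SE 0.59, edgeR adjusted p = 0.0863). Aldh1a2, which encodes an enzyme of retinoic acid synthesis, had a log2 fold change of 0.77 (edgeR adjusted p = 0.214). Pdpn, which encodes podoplanin and is shared with lymphatic endothelium, was the most abundant of the list and had 156 ± 23.1 CPM in PBS against 158 ± 42.4 in DOX (edgeR adjusted p = 0.965).

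Replicate number 1 was low in mesothelial transcripts in both groups. Of the 16 mesothelial genes, 15 had their lowest PBS value in PBS replicate 1 and 13 their lowest DOX value in DOX replicate 1. Summed over the 3 markers, the levels were 24.8, 68.1 and 63.2 CPM in PBS replicates 1, 2 and 3 and 60.3, 94.4 and 117 CPM in DOX replicates 1, 2 and 3. The DOX library with the lowest sum was thus below 2 of the PBS libraries. Without PBS replicate 1 the median log2 fold change of the 13 further genes was 0.48. PBS replicate 1 also held the lowest PBS value of 11 of 11 tested hepatocyte genes and 5 of 7 cholangiocyte genes. The same held for 7 of 12 macrophage and 6 of 10 endothelial genes, but for 3 of 14 stellate cell and 0 of 11 T cell genes. DOX replicate 1 held the lowest DOX value of 5 of 7 cholangiocyte and 0 of 11 hepatocyte genes. Such counts were not made over all genes tested, so it is not known whether these libraries were lowest for most genes.

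**Figure D5:**
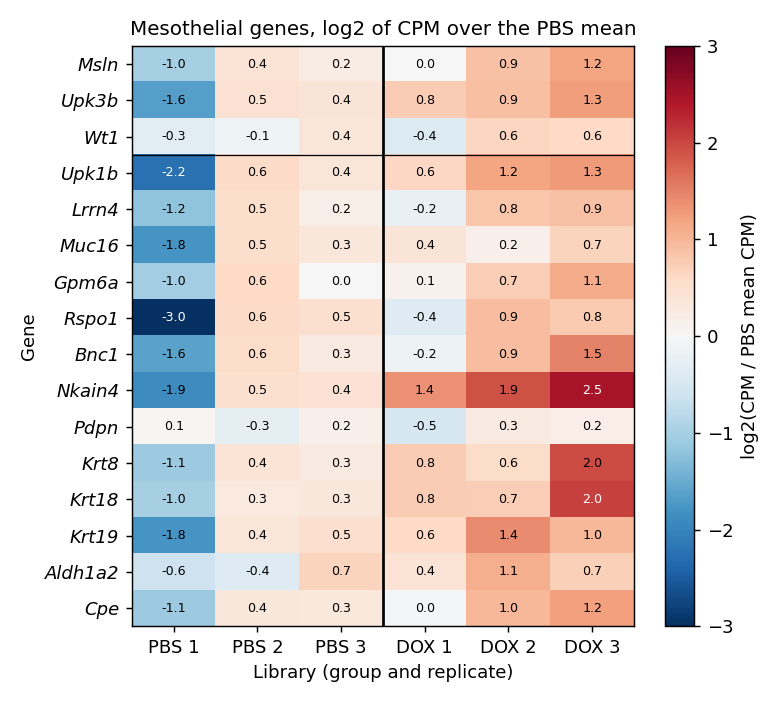
Levels of 16 mesothelial genes in each library as log2 of CPM over the mean of the PBS libraries, printed in each cell; the 3 marker genes stand above the thin line and PBS libraries left of the thick line. PBS replicate 1 is the lowest PBS library for 15 of the 16 genes and DOX replicate 1 the lowest DOX library for 13.

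Hepatocyte transcripts were highest in the DOX library with the highest Krt8 and Krt18. Krt8 and Krt18, keratin genes that hepatocytes and cholangiocytes share with mesothelium, had 228 and 150 CPM in DOX replicate 3, against 98.8 and 61.7 CPM in DOX replicate 1 and 86.2 and 60.4 CPM in DOX replicate 2. That replicate was also the highest in 11 of 11 hepatocyte genes, whose summed level was 147 to 366 CPM in PBS and 277 to 3327 CPM in DOX, with none at 0. Krt19, a keratin gene of cholangiocytes and mesothelium, went another way. DOX replicates 1, 2 and 3 had 44.1, 77.8 and 58.6 CPM of it, highest in the replicate where 11 of 11 hepatocyte genes were lowest. Of 7 tested cholangiocyte genes, Epcam, an adhesion molecule gene of bile duct epithelium, rose 3.03-fold from 1.08 ± 0.422 to 3.28 ± 0.845 CPM (SD, n = 3 each, edgeR adjusted p = 0.0470). The cholangiocyte list summed to 300 to 656 CPM in PBS and 514 to 653 CPM in DOX, most of it Spp1. Leaving out Krt8, Krt18 and Krt19, the other 13 mesothelial genes, markers included, had a median log2 fold change of 0.76, and all 13 were positive. In 3 of these 13 every DOX library was above every PBS library (23.1%, against 16.9% of all genes), 0 passed the edgeR test and 1 had an unadjusted p under 0.05. The part of hepatocyte and cholangiocyte transcripts in the values of the keratin genes was not tested.

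Lists of cells close in kind to portal fibroblasts were tested as well. Of 14 stellate cell genes, 9 myofibroblast genes and 4 smooth muscle genes tested, edgeR called 0 in each list (0, 2 and 1 at an unadjusted p under 0.05), DESeq2 0, 2 and 1, and limma-voom 0 in each. The genes called by DESeq2 were all lower in DOX. They were the contractile genes Acta2 (log2 fold change -1.13, edgeR adjusted p = 0.0797, DESeq2 adjusted p = 0.00786) and Tagln (-1.51, edgeR adjusted p = 0.0958, DESeq2 adjusted p = 0.00785) and the smooth muscle gene Smtn (-0.49, edgeR adjusted p = 0.0878, DESeq2 adjusted p = 0.0393). The medians of the log2 fold change over the 3 lists were 0.06, -0.15 and -0.42. Of the 10 endothelial genes, Tek, which encodes the angiopoietin receptor, fell (log2 fold change -0.80, edgeR adjusted p = 0.0311), and the other 9 did not pass. Summed over the 7 portal fibroblast markers, the levels were 57.1, 95.2 and 161 CPM in PBS replicates 1, 2 and 3 and 81.2, 134 and 113 CPM in DOX replicates 1, 2 and 3, so the groups overlapped. Fbln2 gave the largest share of the reads in each of these sums.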

How the data were processed

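Per the labels' protocols, total RNA came from an RNeasy kit and went into a SMARTER mRNA-Seq library kit. The authors deposited raw counts per gene symbol and FPKM values for the same genes, with 1 column per library, per the file headers. Not given in the sources used here are the aligner, the counter and its handling of strand and multi-mapped reads. The submitters' processing notes list GRCm38, mm10 and hg38 without saying what each was for. Each gene's FPKM equalled its count per library total and a fixed length (relative tolerance 0.0001, 100% of the 20588 genes that allow the check), so both tables hold the same measurement.

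Groups came from the sample titles. Replicates differed beyond sampling noise (chi-square per degree of freedom 38.6 to 82.1). Deviations of same-numbered libraries from their group means correlated at 0.095, -0.11 and 0.23 for numbers 1, 2 and 3. PBS replicates 1, 2 and 3 correlated with differently numbered DOX libraries at means of -0.028, 0.059 and -0.14. So few values, of mixed order, cannot settle whether the numbers pair the libraries. edgeR 4.0.16 (R 4.3.3) was fitted to the deposited counts by group alone, with TMM factors and with filterByExpr at its defaults (minimum count 10, total 15), which left 14439 genes. Tests were two-sided with Benjamini-Hochberg adjustment over all genes and a threshold of 0.05. SEs come from the F statistic. A count of 0 allows up to 3 reads, or 0.0758 to 0.0878 CPM, for counting error only. The code was tested on simulated data, in which DESeq2 made more false calls than edgeR or limma-voom. Alternatives used DESeq2 1.42.0, limma 3.58.1 and other scalings, filters and subsets of libraries.

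The members and the 15 gene lists were chosen with earlier results of these data known. The rule for named genes took all 10 markers, Bche, the TAM receptors, Pros1 and, from each list, the genes past the threshold (or else the 4 with the lowest p) and the 2 most abundant. Lists of other cell types are given mainly by counts and sums, without naming every gene the rule takes. Outside this rule Lrat, Cd3e, Cd3d, Cd3g, Cd8a, Col1a1 and Entpd3 are named as defining or related genes. Mgp, Igfbp6 and Clec3b are named outside it as portal fibroblast genes with a log2 fold change above 0, and none of them passed. Coordinates are 1-based, from the RefSeq annotation of GRCm38.p6, and overlaps of genes from GENCODE.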

Additional observations from a re-analysis of the deposited data

How the results depend on the processing

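The number of markers called was 1 as reported and stayed 1 with RLE and upper-quartile factors, a filter of 1 CPM, limma-voom, a robust fit and limma on log2(FPKM + 1) or log2(FPKM + 0.1). It was 2 by library totals alone, with no low-count filter and by DESeq2 (Thy1 and Dpt), and 0 with a filter of 5 CPM, which removed Thy1. Leaving out single libraries gave between 0 and 1. With the replicate number as a block it was 2, Thy1 and Msln (log2 fold change 0.80, edgeR adjusted p = 0.0426). Whether the numbers pair the libraries is not settled. Thy1 was called in 15 of 18 alternatives. Over all genes 926 were called as reported, 2692 by DESeq2, 781 with the replicate block, and between 0 and 1090 with each library left out. By library totals alone 611 were higher and 730 lower, against 632 and 294, with the median of all genes at -0.14. Signs turned for Fbln2 (-0.036 by library totals alone, and from -0.30 to 0.67 with each library left out) and for Eln (from -0.71 to 0.20 with each library left out). The other 8 markers kept their direction in every alternative that tested them. The median of the 15 further portal fibroblast genes was 0.28 without PBS replicate 3. The cause of these shifts was not tested. With 3 libraries a group, the intervals of Fbln2, Entpd2, Upk3b, Eln and Msln span about 2 or more units on the log2 scale.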
